A study of Homo sapiens with 6 samples.

Results

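The 10 ETS transcription factors described here are ETV1, ETV4, ETV5, ETV6, ETS1, ETS2, ELK1, ELK3, ELF3 and EHF. They were taken as every probe whose gene symbol in the platform's annotation is one of these names, which gave 13 probes for 10 of the 20046 named genes on the array, with 2 probes each for ETV4, ETV5 and ETS1 and 1 for each other gene. RNA came from cells labelled Huh7, a human hepatocellular carcinoma line, and was measured on an Illumina expression beadchip. One group received the solvent DMSO and the other received sorafenib, an oral inhibitor of RAF and receptor tyrosine kinases used against liver cancer, at a dose the study text writes as 3 mM. Both lasted 24 h, and each group had 3 arrays. Huh7 is a single cell line, and its RNA was taken from whole cultures, so fewer cells of a kind and less RNA per cell cannot be told apart in any value below. Nothing in the labels tells whether the 3 replicates of a group were grown apart, so every p-value reflects the variation among these arrays alone, which may be technical.

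ETS factors share a DNA-binding domain that recognises a GGAA core. ETV1, ETV4 and ETV5 form the PEA3 group, whose transcription rises when receptor tyrosine kinases signal through RAS, RAF, MEK and ERK, and whose genes are silenced by the repressor Capicua (CIC) until ERK inactivates it. ETS1 and ETS2 are activators that ERK phosphorylates. ELK1 and ELK3 are ternary complex factors, which bind beside serum response factor at immediate early genes. ETV6 is mainly a repressor, and ELF3 and EHF belong to the epithelium-specific ETS factors. The RAF kinases that sorafenib inhibits lie upstream of several of these factors.

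Upstream sequence was taken from RefSeq (GRCh38.p14) for the 7 members its promoter table held, in 15 windows of 250 bases that end just before an annotated start. ETV4, ETV5 and ETS1 are named only. A search on both strands for the letters TGAATGNA, the octamer Capicua is known to bind, where N is any base, found a match in 1 of the 15 windows, while 3.25% of all 35116 promoter windows of this length held one. The variant TCAATGNA was found in 0 of the 15, against 1.77% of all windows. ETV1, the PEA3 gene with windows here, had 6 of the 15, some of them overlapping, and only 1 of these 6 held the match. The match lay 125 bases before the start, in the window chr7:13991426-13991675 on the minus strand, and its octamer is in capitals.
ETV1: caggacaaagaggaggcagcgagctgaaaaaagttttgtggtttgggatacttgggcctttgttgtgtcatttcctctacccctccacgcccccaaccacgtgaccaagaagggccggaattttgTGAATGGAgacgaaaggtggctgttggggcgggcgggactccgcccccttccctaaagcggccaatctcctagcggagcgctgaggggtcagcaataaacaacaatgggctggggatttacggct
For a member that fell and the member that rose on the signal arrays, the windows before the first annotated start of ETS2 (chr21:38804933-38805182, plus strand) and before the start of ELF3 (chr1:202010337-202010586, plus strand) are given with GGAA or its reverse, TTCC, in capitals.
ETS2: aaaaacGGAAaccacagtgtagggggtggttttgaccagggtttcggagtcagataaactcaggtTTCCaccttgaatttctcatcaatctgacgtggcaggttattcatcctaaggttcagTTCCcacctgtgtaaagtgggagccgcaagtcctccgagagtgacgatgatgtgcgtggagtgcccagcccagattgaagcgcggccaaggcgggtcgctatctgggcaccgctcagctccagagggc
ELF3: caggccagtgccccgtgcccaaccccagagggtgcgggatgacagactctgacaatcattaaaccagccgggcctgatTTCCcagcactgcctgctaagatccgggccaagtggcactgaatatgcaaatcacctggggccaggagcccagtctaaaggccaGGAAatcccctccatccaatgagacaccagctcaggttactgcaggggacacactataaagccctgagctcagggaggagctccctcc
GGAA or TTCC occurred 3 times in that ETS2 window, 6 times in the window before the gene's other annotated start, and 2 times in the ELF3 window. Over the 15 member windows the count ran from 0 to 6. The core is short and common: 92.7% of all windows held at least 1 match, with a median of 3, and 9.14% held 6 or more. A match is a description of the letters, not a binding site.

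The deposit holds 2 sources of values, and they did not hold the same arrays. The first is the probe signals of 6 arrays with a detection p-value per probe, called the signal arrays here. The second is a table of normalized log2 values with 1 column per sample, called the value-table arrays. A sample's own 2 columns correlated across probes at a Spearman rho of 0.848 to 0.863, while different arrays within a source correlated at 0.925 to 0.942 (signals) and 0.923 to 0.939 (table), so each source was tested only within itself. Which of them holds RNA of the labelled cells is not settled by the files. Median raw signals were 120.2 to 144.5, and an array detected between 16476 and 17476 of the 47323 probes. The 11 hepatocyte markers on the array of 13 listed were above the detection or filter level on every array of both sources. In the signals 4 of them rose and 2 fell, the largest being TF, the transferrin gene (0.61, limma adjusted p = 0.000449), APOA1 (0.47, 0.00131), APOB (-0.53, 0.00166) and AFP (-0.28, 0.00577). In the table, 1 rose and 1 fell: GPC3 changed by 0.49 (adjusted p = 0.0198, and 0.0551 to 0.0710 without DMSO column 1 or 2 or sorafenib column 1) and APOB by -0.21 (0.0399, and 0.0535 to 0.123 without any 1 column). Of 13 stromal, endothelial and immune markers, 8 were above that level on no array of the signals and 8 on no array of the table, among them COL1A1, CDH5, PTPRC and CD3E in both. The log2 of this list's summed level was 14.29 to 14.44 with DMSO and 14.28 to 14.36 with sorafenib in the signals, and 13.70 to 13.85 against 12.77 to 13.23 in the table. Of its 5 genes tested in the signals, 1 rose and 2 fell, and of 3 tested in the table, 0 rose and 1 fell. LYZ, the gene of lysozyme, fell by 0.99 in the table (limma, adjusted p = 0.00507) and by 0.82 in the signals (adjusted p = 0.000123). In the signals ACTA2, a smooth muscle actin gene, rose by 0.65 (adjusted p = 0.000129), and PDGFRB, a receptor gene of stromal cells, was detected on 3 DMSO arrays and 0 sorafenib arrays and was at least 1.22-fold lower (adjusted p = 0.00266). PDGFRB is 1 of the 2 that fell there, and it entered the test only through the DMSO arrays, so its call is no support for a fall in this list. The part of these markers in the results below was not tested.

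On the signal arrays, the PEA3 genes ETV4 and ETV5 fell with sorafenib by 5.04-fold and 3.58-fold, ETS2 and ELK3 fell less far, and ELF3 rose from near the detection level. Of the 10 members, 8 were tested, because a probe was kept where 3 or more of the 6 arrays had its detection p below 0.01. With limma and a Benjamini-Hochberg adjusted p under 0.05 over all kept probes, 4 of the 8 fell and 1 rose, while 3 did not pass. For comparison, 14.2% of the 10523 tested genes fell and 16.8% rose. The DMSO and sorafenib arrays did not overlap for 5 of the 8 members, and this held for 47.5% of all tested genes. The members' median log2 change was -0.46, beside -0.0010 over all tested genes.

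**Figure D1:**
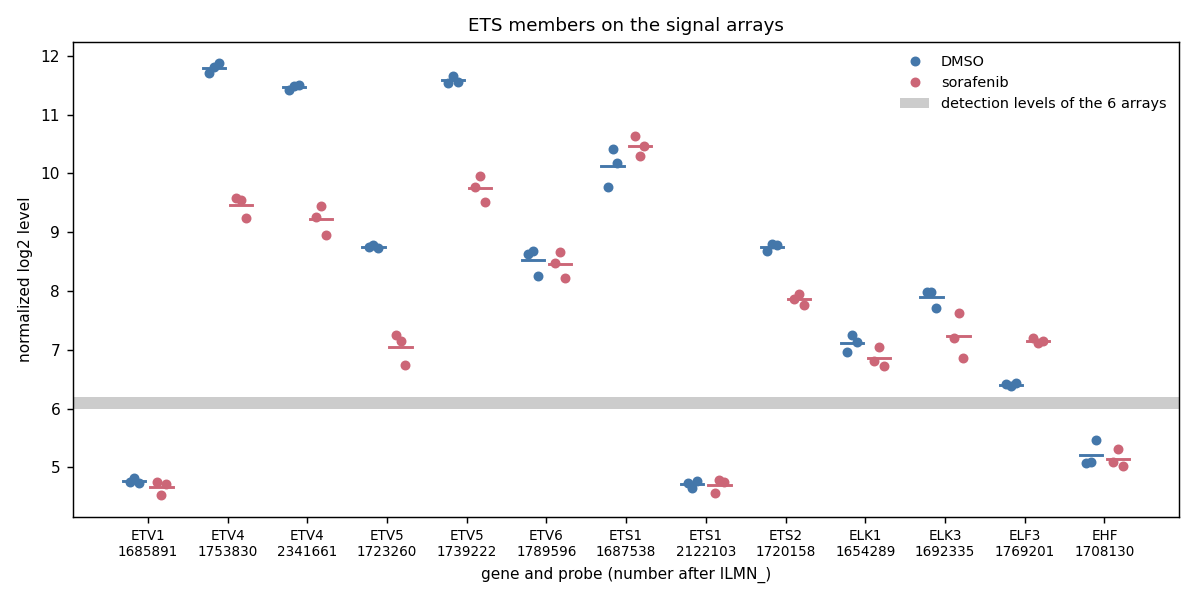
Normalized log2 level (y axis) of each member probe (x axis) on the 6 signal arrays. Each point is an array, blue for DMSO and red for sorafenib, the short lines are group means, and the grey band spans the detection levels of the 6 arrays, 5.99 to 6.19. All 4 probes of ETV4 and ETV5 have their sorafenib arrays below every DMSO array, ELF3 lies the other way, and ETV1, EHF and the second ETS1 probe lie below the band.

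ETV4, also known as PEA3 itself, had normalized log2 levels of 11.71, 11.80 and 11.87 on the DMSO arrays and 9.59, 9.55 and 9.24 on the sorafenib arrays (probe ILMN_1753830). No array of one group came near the other. In raw signal, before any normalization, this probe gave 3266, 4453 and 3470 with DMSO and 962, 898 and 565 with sorafenib. The log2 change was -2.33 (SE 0.10, 95% confidence interval -2.56 to -2.11), a 5.04-fold lower level, with an adjusted p of 1.00e-06 in limma. ETV4 ranked 12 among all genes that were lower with sorafenib by size of the change. Its second probe, ILMN_2341661, gave 11.43, 11.49 and 11.51 with DMSO and 9.25, 9.44 and 8.96 with sorafenib, a change of -2.26 (SE 0.11, adjusted p = 2.81e-06). The 2 probes thus fell by like amounts and were called alike.

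ETV5, the close paralogue of ETV4 and also called ERM, was read by 2 probes. ILMN_1739222, which stands for the gene in counts, had levels of 11.54, 11.65 and 11.56 with DMSO and 9.78, 9.95 and 9.50 with sorafenib, a log2 change of -1.84 (SE 0.11, 95% confidence interval -2.08 to -1.60, 3.58-fold lower, limma adjusted p = 6.15e-06). ILMN_1723260 had 8.75, 8.79 and 8.73 against 7.26, 7.15 and 6.73, a change of -1.71 (SE 0.15, adjusted p = 5.83e-05). In both probes the groups were far apart, and sorafenib array 3 was the lowest. ETV5 ranked 22 among the genes that were lower. ETV1, the remaining PEA3 gene, was detected on 0 of the 6 arrays, with detection p-values of 0.653 to 0.995 and log2 levels of 4.53 to 4.82, so no change is given for it.

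ETS2, an activator with an ERK phosphorylation site beside its pointed domain, had levels of 8.67, 8.80 and 8.79 with DMSO and 7.87, 7.96 and 7.77 with sorafenib. The groups were separate and each spread over less than the gap between them. Its log2 change was -0.89 (SE 0.10, 95% confidence interval -1.12 to -0.66, 1.85-fold lower, limma adjusted p = 0.000338). ETS1, its paralogue, had levels of 9.77, 10.42 and 10.18 with DMSO and 10.63, 10.29 and 10.47 with sorafenib. These groups overlapped, and the change of 0.34 (95% confidence interval -0.0010 to 0.69) did not pass (limma adjusted p = 0.130). A second ETS1 probe, ILMN_2122103, was detected on 0 arrays, with detection p-values of 0.708 to 0.977.

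ELK3, a ternary complex factor also called NET, which can repress serum response genes, had levels of 7.98, 7.98 and 7.71 with DMSO and 7.20, 7.63 and 6.86 with sorafenib. Sorafenib array 2 lay just below the lowest DMSO array. Its log2 change was -0.66 (SE 0.19, 95% confidence interval -1.09 to -0.24, limma adjusted p = 0.0290). This call did not hold without DMSO array 1 or 2 (adjusted p = 0.0674 and 0.0985) or sorafenib array 1 or 3 (0.0772 and 0.0813), nor without the intensity trend (0.0510), and the change was -0.42 without background correction. ELK1, the best known ternary complex factor, had 6.96, 7.24 and 7.14 with DMSO and 6.80, 7.05 and 6.73 with sorafenib. The groups overlapped, and the change of -0.25 (95% confidence interval -0.59 to 0.09) did not pass (limma adjusted p = 0.255).

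ELF3, an ETS factor of epithelial cells, was the member that rose. Its levels were 6.41, 6.38 and 6.43 with DMSO, just above the detection level, and 7.20, 7.11 and 7.15 with sorafenib. The arrays of each group lay close together and the groups were apart. The log2 change was 0.75 (SE 0.14, 95% confidence interval 0.44 to 1.06, 1.68-fold higher, limma adjusted p = 0.00368), and ELF3 ranked 388 among the genes that were higher. The size differed between background corrections and offsets: it was 0.39 without background correction (adjusted p = 0.00371) and 0.45 with normexp at an offset of 50 (0.00376), against the offset of 16 used here. ETV6, the repressor, had 8.64, 8.68 and 8.26 with DMSO and 8.48, 8.66 and 8.22 with sorafenib. These values overlapped almost wholly, with a change of -0.07 (95% confidence interval -0.40 to 0.26, limma adjusted p = 0.767). EHF, the second epithelium-specific member, was detected on 0 arrays, with detection p-values of 0.0961 to 0.366.

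On the value-table arrays, ETV4, ETV5 and ETS2 fell with sorafenib, and ELF3 was not called in either direction. Of the 10 members, 7 had a value above 7.40, the filter level, on at least 3 columns. In the same limma test 3 of the 7 fell, 0 rose and 4 did not pass, beside 8.17% of the 10595 tested genes that fell and 11.3% that rose. The groups did not overlap for 5 of the 7 members and for 39.8% of all tested genes. The replicate numbers may pair the arrays, but the labels do not state this, so the main test has no block. With the number as a block in the fit 6 of the 7 members passed, 4 lower and 2 higher, beside 15.5% of all tested genes lower and 19.1% higher. The members' median log2 change was -0.18, beside 0.0077 over all tested genes.

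**Figure D2:**
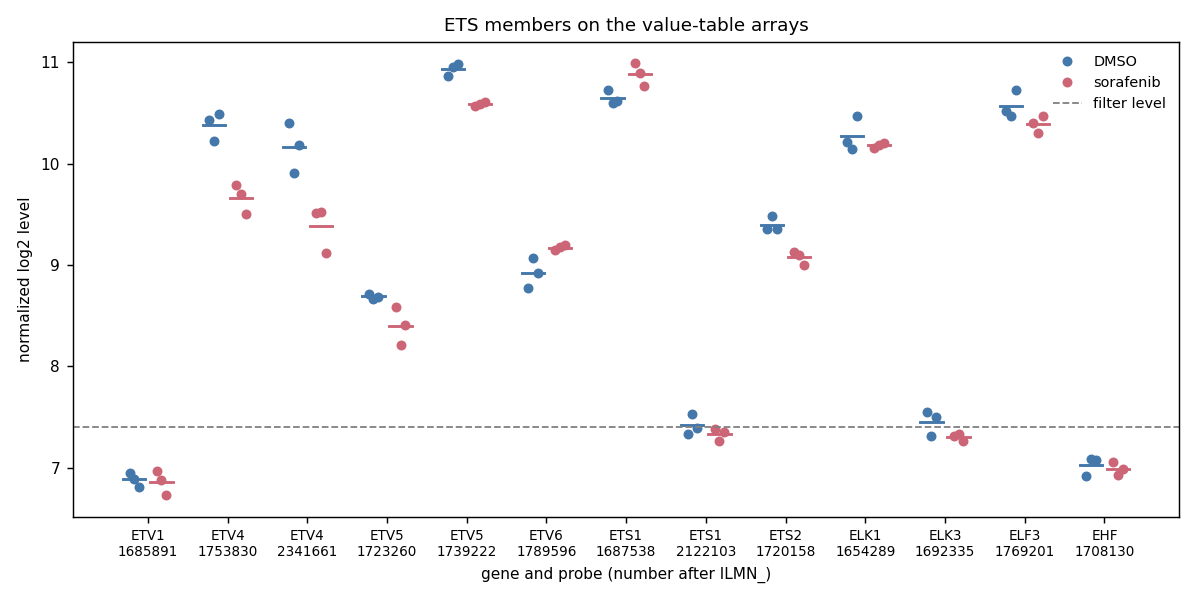
Normalized log2 level (y axis) of each member probe (x axis) on the 6 value-table arrays. Each point is a column, blue for DMSO and red for sorafenib, the short lines are group means, and the dashed line is the filter level of 7.40. Both ETV4 probes, both ETV5 probes and ETS2 have their sorafenib columns below every DMSO column, while ETV6 and ETS1 have them above.

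In the table ETV4 had log2 values of 10.43, 10.22 and 10.49 with DMSO and 9.79, 9.70 and 9.50 with sorafenib. The groups were separate, with a change of -0.71 (SE 0.10, 95% confidence interval -0.94 to -0.49, 1.64-fold lower, limma adjusted p = 0.00289) and rank 40 among the genes that were lower. The second probe had 10.40, 9.91 and 10.18 against 9.51, 9.52 and 9.12, a change of -0.78 (SE 0.14, adjusted p = 0.00810). ETV5 had 10.87, 10.96 and 10.98 with DMSO and 10.57, 10.59 and 10.60 with sorafenib, a change of -0.35 (SE 0.07, 95% confidence interval -0.50 to -0.20, 1.27-fold lower, limma adjusted p = 0.00927), which ranked 560 among the lower genes. All 3 sorafenib columns of this probe lay within a narrow range below DMSO. The second ETV5 probe, ILMN_1723260, had 8.72, 8.67 and 8.69 against 8.58, 8.22 and 8.41, a change of -0.29 that did not pass (adjusted p = 0.0832) unless the replicate number was a block (0.0157). ETV1 was above the filter level on 0 columns.

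ETS2 had table values of 9.35, 9.48 and 9.35 with DMSO and 9.13, 9.10 and 9.00 with sorafenib. The groups were separate, and the change of -0.32 (SE 0.08, 95% confidence interval -0.50 to -0.14) passed with an adjusted p of 0.0265 in limma. That call was lost when any 1 of the 6 columns was left out, with adjusted p-values of 0.0518 to 0.0753 over the 6 fits, and without the filter (0.0532). ETS1 had 10.72, 10.59 and 10.62 against 10.99, 10.89 and 10.77. Its columns did not overlap, yet its change of 0.24 (95% confidence interval 0.06 to 0.42) did not pass (limma adjusted p = 0.0657), and did so with the replicate block (0.00887) or without sorafenib column 3 (0.0472). ETV6 had 8.78, 9.07 and 8.92 against 9.14, 9.17 and 9.19. Its change of 0.25 (95% confidence interval 0.04 to 0.46) likewise did not pass (limma adjusted p = 0.0932) except with the block (0.0241) or without DMSO column 2 (0.0476).

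ELF3 had table values of 10.52, 10.46 and 10.72 with DMSO and 10.40, 10.30 and 10.47 with sorafenib. The columns overlapped slightly, and the change of -0.18 (95% confidence interval -0.38 to 0.02, limma adjusted p = 0.192) passed as lower only with the replicate block (0.0442). It thus stood on the other side of 0 from the rise on the signal arrays, and the difference between the sources was not tested. ELK1 had 10.21, 10.14 and 10.47 against 10.16, 10.19 and 10.20, a change of -0.09 (95% confidence interval -0.30 to 0.12, limma adjusted p = 0.550) with overlapping groups. ELK3 was above the filter level on 2 columns, both DMSO, and EHF on 0, so neither was tested. The second ETS1 probe was above it on 1 column. The members called lower in both sources were ETV4, ETV5 and ETS2, but the table call of ETS2 did not hold without any 1 column. The share of all tested genes called lower in both sources was not computed.

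**Figure D3:**
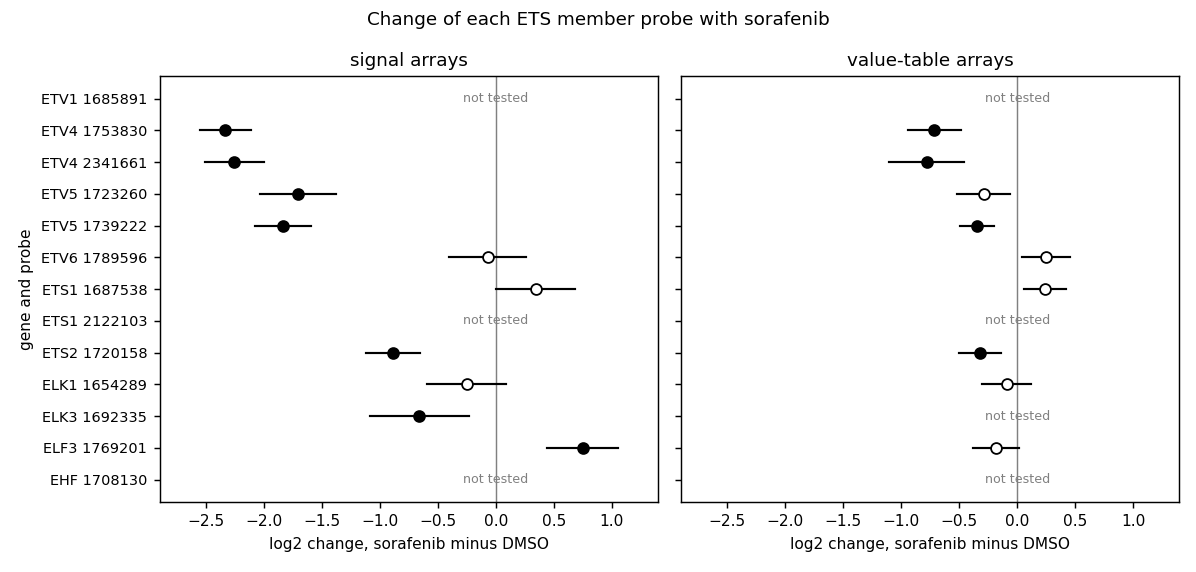
Log2 change, sorafenib minus DMSO (x axis), of each member probe (y axis) on the signal arrays (left) and the value-table arrays (right). Points are limma estimates from 3 arrays per group and lines their 95% confidence intervals, filled where the adjusted p is under 0.05. The ETV4 probes lie farthest to the left in both panels, at -2.33 and -2.26 on the left and -0.71 and -0.78 on the right, and ELF3 lies to the right of 0 on the left only.

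Some members' levels also differed between the sources. These levels are each probe's own and come from 2 sources normalized separately, so they are set side by side as a description only, with the signals taken without background correction. ETV4 averaged 11.82 in the signals and 10.38 in the table with DMSO, and ETV5 11.62 and 10.93. ELF3 averaged 7.54 in the signals and 10.57 in the table, the widest gap of any member probe. ELK1 was likewise dimmer in the signals, at 7.90 against 10.27, while ELK3 was brighter there, at 8.40 against 7.46. ETV6 (8.87 and 8.92), ETS1 (10.24 and 10.64) and ETS2 (9.05 and 9.40) lay closer together.

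Among the other 18 genes of the ETS family, calls went in both directions. On the signal arrays 11 of them were tested, 4 rose, 1 fell and 6 did not pass, with a median log2 change of 0.07. ELK4, the remaining ternary complex factor, also called SAP1, had levels of 8.80, 8.78 and 8.64 with DMSO and 8.12, 8.14 and 8.10 with sorafenib. Its change was -0.62 (SE 0.10, limma adjusted p = 0.00176). SPI1, the PU.1 gene of myeloid cells, was detected on 0 DMSO arrays and on all 3 sorafenib arrays, with levels of 5.54, 5.27 and 5.19 against 6.43, 6.25 and 6.65, which makes its level with sorafenib at least 1.30-fold higher (adjusted p = 0.00345 in limma). It entered the test only through the sorafenib arrays, so its call is no support for a rise in this list, where 3 of the other 10 tested genes, SPIC among them, rose. Its relative SPIC was detected on 1 of 3 DMSO arrays and had 5.78, 5.88 and 6.38 against 6.90, 6.97 and 7.20 (change 1.01, adjusted p = 0.00509, and 0.48 without background correction). SPIC too reached the 3 arrays that the filter asks for only through its sorafenib arrays, so its call is no support for a rise either. Both of these genes lie near the detection level, and each had a second probe detected on 0 arrays. Of the listed myeloid and leukocyte markers, PTPRC and CD3E were detected on 0 arrays, while CD68, CD79A and LYZ were detected. CD68 changed by 0.01 (limma adjusted p = 0.946), LYZ fell, as given above, and the change of CD79A is not given here. Any part of such cells in the levels of SPI1 and SPIC was not tested.

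ELF1 and ELF4, activators best known from blood cells, rose by less. ELF1 changed by 0.34 (SE 0.08, limma adjusted p = 0.0114), which did not pass under median scaling (0.210) or without DMSO array 2 (0.0533). ELF4 changed by 0.28 (SE 0.09, adjusted p = 0.0446), which did not pass under median scaling (0.287), without the filter (0.119), or without any 1 array other than DMSO array 1 (0.0848 to 0.121). In the table, 8 of the 18 were tested and 0 passed, with a median change of -0.09. There ELK4 had a change of -0.31 (SE 0.10), again below 0, with a limma adjusted p of 0.0809 that was 0.0132 with the replicate block and 0.0251 without sorafenib column 3. With the block 2 of the 8 passed as lower. SPI1 and SPIC were not tested in the table.

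Genes that control the members' activity or stability for the most part did not pass the test. Of 17 regulators and partners, all tested on the signal arrays, 1 rose, 2 fell and 14 did not pass (median log2 change 0.008). TRIB1, a pseudokinase adaptor of the COP1 ubiquitin ligase, fell from 12.45, 12.34 and 12.20 to 11.28, 11.33 and 11.23, a change of -1.05 (SE 0.08, limma adjusted p = 2.25e-05). GABPB1, which pairs with the ETS factor GABPA, fell by 0.68 (SE 0.08, adjusted p = 0.000302). COP1, which marks PEA3 proteins for degradation, had a change of 0.20 (adjusted p = 0.0441) that did not pass without any 1 of the 6 arrays (0.0519 to 0.140). Its other kept probe, ILMN_2408001, had a change of 0.27 that did not pass (adjusted p = 0.132). DDB1 and DET1, counted as not passing, each had a dimmer probe called lower: ILMN_1695430 (-0.69, adjusted p = 0.0239) and ILMN_2145423 (-0.40, 0.0392). The repressor CIC, named here for its role and after its value was seen, had a change of 0.30 (SE 0.12, adjusted p = 0.0837). In the table, 16 were tested, 0 rose and 2 fell. These were GABPB1, at -0.50 (SE 0.07, adjusted p = 0.00300), and TRIB1, at -0.40 (SE 0.10, adjusted p = 0.0234), whose call did not hold without any 1 of 4 columns, DMSO column 1 or 2 or sorafenib column 2 or 3 (0.0593 to 0.0847).

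The kinases and adaptors of the RAS, RAF, MEK and ERK route moved both ways. On the signal arrays 15 of 21 were tested, 3 rose and 4 fell, with a median log2 change of 0.07. Without DMSO array 2 or sorafenib array 1 or 3, 2 fell, and without DMSO array 2 or sorafenib array 3, 1 rose. SHC1, an adaptor of activated receptors, fell by 0.58 (SE 0.07, limma adjusted p = 0.000448), and MAP2K1, which encodes the kinase MEK1, had a change of -0.35 (SE 0.06, adjusted p = 0.00364) that did not pass under median scaling (0.0948). MAPK3, which encodes ERK1, rose by 0.67 (SE 0.08, adjusted p = 0.000393). KSR1, a scaffold of RAF and MEK, had a change of 0.73 (SE 0.18, adjusted p = 0.0136), or 0.34 without background correction, that did not pass without DMSO array 2 or sorafenib array 3 (0.0519 and 0.0527). In the table, 13 were tested, 1 rose and 5 fell, but 1 to 3 fell when any 1 column was left out (1 without sorafenib column 1) and 3 fell without the filter. The table call of MAP2K1 (-0.20, limma adjusted p = 0.0395) did not pass without any 1 column (0.0671 to 0.123). SHC1 fell there by 0.67 (SE 0.07, adjusted p = 0.000729). HRAS changed by -0.43 (adjusted p = 0.0131, and 0.0529 and 0.0532 without sorafenib column 1 or 2), and MAPK3 by 0.36 (adjusted p = 0.0322), which did not pass without 4 of the 6 columns, DMSO column 1 or 2 or sorafenib column 2 or 3 (0.0653 to 0.0908).

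Feedback genes that ERK signalling switches on fell in both sources, without a rise called in either. This list, like the others, was chosen with earlier results of these data known. On the signal arrays 11 of 14 were tested and all 11 fell, beside 14.2% of all tested genes. Their log2 changes were -2.97 to -0.36, with a median of -1.40. SPRY4, an inhibitor of receptor signalling, fell from 13.27, 13.30 and 12.80 to 10.39, 10.39 and 9.67, a change of -2.97 (SE 0.19, 7.84-fold, limma adjusted p = 1.15e-05). DUSP6, the phosphatase of ERK, fell from 11.59, 11.68 and 11.38 to 9.06, 9.04 and 8.31, a change of -2.75 (SE 0.18, 6.71-fold, adjusted p = 1.23e-05). In the table, 11 were tested, 8 fell and 0 rose, with a median of -0.62, beside 8.17% of all tested genes that fell. SPRY4 changed there by -1.28 (SE 0.10, adjusted p = 0.000305) and DUSP6 by -1.23 (SE 0.09, adjusted p = 0.000303).

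Immediate early genes of serum response factor and the ELK factors included a gene that moved opposite ways in the sources. Of 12 listed, 6 were tested on the signal arrays, where 4 fell and 0 rose (median log2 change -0.57). EGR1, a zinc finger factor induced within minutes of stimulation, fell from 9.68, 9.59 and 9.84 to 7.88, 8.02 and 7.48, a change of -1.91 (SE 0.14, limma adjusted p = 2.78e-05). CCN1, a secreted matrix protein also called CYR61, fell by 0.75 (SE 0.16, adjusted p = 0.00768). Of this list, 7 were tested in the table, 4 fell and 1 rose (median -0.41). FOS, the AP-1 subunit, fell from 8.13, 8.23 and 7.95 to 7.33, 7.24 and 7.09, a change of -0.88 (SE 0.10, adjusted p = 0.00119), and EGR1 changed by -0.70 (SE 0.12, adjusted p = 0.00573). The sorafenib values of FOS lay below the filter level of 7.40, so FOS entered the test only through the DMSO columns. Its call is no support for a fall in this list, where it is 1 of the 4 that fell, and its size is uncertain. CCN1 there had a change of 0.60 (SE 0.17, adjusted p = 0.0362), which did not pass without any 1 column other than DMSO column 1 (0.0538 to 0.120).

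Genes reported elsewhere as ETS targets, such as matrix proteases and invasion genes, were mostly too dim to test. Of 19 listed, 7 were tested on the signal arrays, where 3 fell and 1 rose (median log2 change -0.40). TERT, the catalytic subunit of telomerase, had levels of 6.60, 6.78 and 7.43 with DMSO, was detected on 0 sorafenib arrays, and was at least 1.77-fold lower (limma adjusted p = 0.00855). It entered the test only through the DMSO arrays, so its call is no support for a fall in this list, where 2 of the other 6 tested genes fell. Without DMSO array 1 or 2 or sorafenib array 2, 1 of the list fell. PLAU, the urokinase gene, had a change of -0.98 (SE 0.30, adjusted p = 0.0367) that did not pass without any 1 of 4 arrays, DMSO array 1 or 2 or sorafenib array 2 or 3 (0.0764 to 0.133), nor without the intensity trend (0.0828). ERBB2, a receptor tyrosine kinase gene, rose by 0.83 (SE 0.08, adjusted p = 0.000131). In the table, 7 were tested, 2 rose and 0 fell (median -0.01). ERBB2 changed by 0.35 (SE 0.08, adjusted p = 0.0215) and VIM, an intermediate filament gene, by 0.27 (SE 0.08, adjusted p = 0.0403). The ERBB2 call did not hold without any 1 of 4 columns, DMSO column 1 or 3 or sorafenib column 1 or 2 (0.0631 to 0.0786), and the VIM call without any 1 column other than sorafenib column 3 (0.0612 to 0.135). TERT had a table change of -0.11 (adjusted p = 0.700). With the replicate block 1 target fell.

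Epithelial genes, which include known partners and targets of ELF3 and EHF, gave both directions as well. Of 18 such genes, 6 were tested on the signal arrays, where 2 rose and 2 fell (median log2 change 0.04). CDH1, the gene of E-cadherin, had levels of 11.63, 11.64 and 11.17 with DMSO and 12.45, 12.45 and 11.81 with sorafenib, a change of 0.75 (SE 0.18, limma adjusted p = 0.0130) that did not pass without sorafenib array 1 or 2 (0.0509 and 0.0578). Array 3 of each group was the lowest. EPCAM, an epithelial adhesion gene, changed by 0.38 (SE 0.06, adjusted p = 0.00108, and 0.0716 under median scaling). TGFBR2, a receptor gene that ELF3 is known to activate, fell by 0.42 (SE 0.07, adjusted p = 0.00247). KRT8, a keratin gene, changed by -0.31 (adjusted p = 0.0484), and did not pass without any 1 array other than DMSO array 3 (0.0504 to 0.166). In the table, 10 were tested, 1 rose and 2 fell, and 4 rose with the replicate block. CDH1 rose there from 11.90, 11.96 and 11.94 to 12.48, 12.52 and 12.64, a change of 0.62 (SE 0.06, adjusted p = 0.000879). KRT8 fell by 0.57 (SE 0.07, adjusted p = 0.00200), and TGFBR2 changed by -0.36 (SE 0.08, adjusted p = 0.0165), which did not pass without DMSO column 1 or sorafenib column 1 or 2 (0.0519 to 0.0621).

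**Figure D4:**
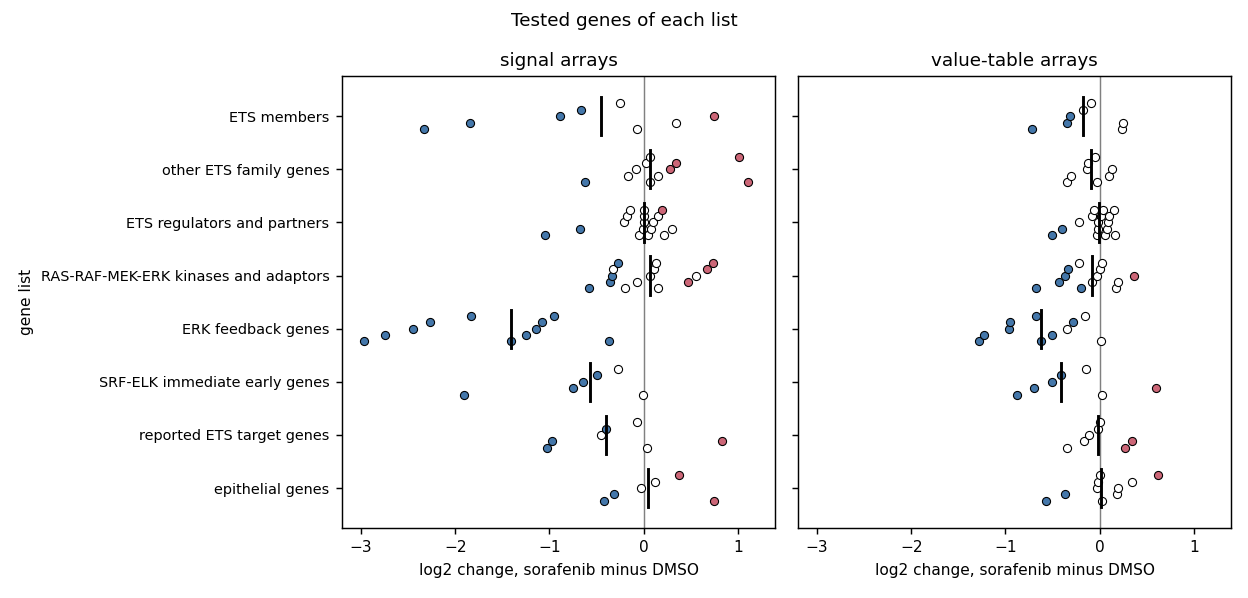
Log2 change, sorafenib minus DMSO (x axis), of each tested gene in 8 lists (y axis) on the signal arrays (left) and the value-table arrays (right). Each point is a gene, shown by its brightest kept probe, blue where it fell and red where it rose at an adjusted p under 0.05 and white where it did not pass, and bars are list medians. The ERK feedback genes lie lowest, with medians of -1.40 and -0.62, and the ETS members have medians of -0.46 and -0.18.

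The genes whose levels over the 6 arrays were most like those of the PEA3 members were found by the Euclidean distance between mean-centred log2 levels. On the signal arrays ETV4 was closest to NR0B2 (distance 0.24), a nuclear receptor that lacks a DNA-binding domain, then to HEY1 (0.45), a Notch-induced repressor, and TCIM (0.51), among 10522 other genes. ETV5 was closest to DLX1 (0.15), a homeobox gene, then to EPHA2 (0.27) and EGR1 (0.28), of which EPHA2 is on the ERK feedback list and EGR1 on the immediate early list. All 6 genes were lower with sorafenib, with log2 changes of -2.63 to -1.77, as the measure requires of a neighbour of a gene that fell. The change of -2.63 is that of HEY1, which averaged 5.77 with sorafenib, below the detection levels of 5.99 to 6.19. The size of this change and the distance of HEY1 to ETV4 are therefore uncertain. In the table, ETV4 was closest to MMP15 (0.094), a membrane matrix protease, NOP16 (0.17) and PGAM4 (0.18), and ETV5 to RANBP1 (0.044), a partner of the RAN GTPase, DEPDC1B (0.049) and LRG1 (0.063), among 10594. The neighbours named in the 2 sources had no gene in common.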

How the data were processed

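Per the file headers, the authors deposited non-normalized probe signals of 6 arrays, which are linear intensity values, each beside a detection p-value. They also deposited a table with 1 column per sample. The deposited table was taken to hold log2 values because they run from 6.08 to 15.85. It was taken to be normalized and was used as deposited. Its median over all columns together was 7.10, and no comparison of the columns' distributions is given here. Whether a background was subtracted, and the direction of any centring, is unknown. Per the labels' protocols, spin-column RNA was treated with DNase and labelled as biotinylated cRNA. How the table was made, and with which scanner software, is not given in the sources used here.

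Signals were background-corrected from the detection p-values and quantile-normalized with limma 3.58.1 (neqc, offset 16) in R 4.3.3. A probe was kept where 3 or more of the 6 arrays had its detection p below 0.01 (17115 of 47323), or, in the table, where 3 or more columns exceeded 7.40, the level of that threshold in signals that had no background subtracted (17122). Groups, taken from the sample titles, were compared with lmFit and eBayes (intensity trend, group as the only term, two-sided p), adjusted by Benjamini-Hochberg over kept probes, with a threshold of 0.05. This called 4588 probes in the signals (2419 higher, 2169 lower) and 3038 in the table (1555 higher, 1483 lower). With the replicate number as a block the signals gave 6747 called probes, 3360 higher and 3387 lower. The number of arrays limits the precision.

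The platform annotation gave 1 symbol to 30113 probes, several to 8 and none to 17202, and 30074 were matched to current symbols by Entrez identifier, of which 0 changed. A gene is represented by its kept probe of highest mean level. Where no array of a group detected a gene, its fold is a bound: the brighter group's mean is set against the dim group's mean, taking on each array whichever is higher, the detection level or the probe's value. No 2 arrays held identical values. Arrays with the same replicate number deviated together from their group means in both sources (correlations 0.337, 0.321 and 0.384 in the signals, 0.432, 0.317 and 0.666 in the table). The numbers may thus pair the arrays, but the labels do not state it, so the block was run only as an alternative. Arrays with different numbers gave -0.353 to 0.0330 in the signals and -0.518 to 0.294 in the table, so the pairing is less clear in the table. The possible pairing rests only on this check and the titles' numbers, and blocked values are given where they change a call.

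The members and lists were chosen with earlier results of these data known. All members were named with every probe. Each other list names its 2 largest rises and 2 largest falls past the threshold, the other ETS family genes every gene past it, and each tested PEA3 member its 3 nearest genes. Alternatives were other background corrections, median scaling, other filters, no trend, the block, averaging a gene's probes and leaving out each array. Sequences are from RefSeq (GRCh38.p14).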

Additional observations from a re-analysis of the deposited data

Results flagged for a closer look

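CCN1 (probe ILMN_2188264), on the list of immediate early genes, moved opposite ways in the 2 sources with no overlap between groups in either. Its log2 change with sorafenib was -0.75 on the signal arrays, from 10.94, 10.92 and 10.36 to 10.03, 10.17 and 9.76, and 0.60 on the value-table arrays, from 12.13, 11.74 and 11.34 to 12.47, 12.30 and 12.24. The difference between the sources was not tested.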

How the results depend on the processing

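Over all results and alternatives, 1210 values kept their direction and side of the threshold, or stayed within the tolerance for counts, 102 called changes lost their call, 9 gained one, 96 counts moved by more than 1.5 times and 8 values changed sign. Under median scaling the signal arrays gave 2627 called probes in place of 4588, 2 other ETS genes higher in place of 4, 1 kinase or adaptor lower in place of 4, and 1 epithelial gene higher and 1 lower in place of 2 each. With the replicate block the value-table arrays gave 5456 called probes in place of 3038 (2721 higher, 2735 lower), 6 called members and 2 members higher. Leaving out 1 array in turn gave 2938 to 4337 called probes in the signals, the fewest without DMSO array 2, and 1560 to 2494 in the table, with 1676 and 1929 without DMSO column 1 or 3 and 1560 and 1657 without sorafenib column 1 or 2. Members called were then 4 to 5 in the signals and 2 to 3 in the table, with 0 to 1 higher in the table (ETV6 without DMSO column 2, ETS1 without sorafenib column 3). Of the 38 called changes in the signals among probes of genes named for either source, 29 kept their call without each array, and 12 of 23 did in the table. The calls of ETV4, ETV5 and ETS2 in the signals and of ETV4 and ETV5 (ILMN_1739222) in the table held under every alternative run. The sign changed in 6 named results that had not passed, and they did not pass after the change either. For ETV6 in the signals the change was -0.20 to 0.048 over the 6 fits that leave out 1 array, with 0.0059 without DMSO array 2 and 0.048 without sorafenib array 3. In the table it was -0.16 to 0.0070 for ELK1 and -0.11 to 0.017 for ELF1, both highest without DMSO column 3, -0.12 to 0.049 for AFP (0.049 without DMSO column 3, 0.017 without sorafenib column 2), and -0.015 to 0.29 for APOA1 and -0.23 to 0.084 for TERT, whose signs changed without sorafenib column 3. The block changed no member call other than those given beside the results. Signal over background limits ETV1, EHF and the second ETS1 probe in both sources and ELK3 in the table, for which no change can be given.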
